A study of Homo sapiens with 9 samples.

Results

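The 44 genes described here make or control the machinery that copies DNA. They were chosen by name: 10 genes of origin licensing, 6 of helicase activation, 5 of the sliding clamp and its loader, 8 of the replicative polymerases and primase, 3 of the single-strand binding protein RPA, 3 of nucleotide supply, 3 of S-phase chromatin and histone RNA, and 6 cyclins and E2F factors of the G1/S step. All 44 of the 44 were among the 18970 gene symbols of both count tables, and all 44 passed the filter on low counts in every comparison.

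In G1, the origin recognition complex, CDC6 and CDT1 load the MCM2 to MCM7 ring onto DNA, which is called licensing. At the start of S phase CDC45 and the GINS complex join the ring to form the active helicase, and primase, the polymerases, PCNA and its loader follow. D-type cyclins with CDK4 or CDK6, then E-type cyclins with CDK2, phosphorylate the RB proteins and release E2F factors, which switch on many of these same genes, so that their RNA is highest around the G1/S step. In the embryo, neural crest cells divide while they leave the neural tube and migrate, and in the avian trunk their departure is tied to entry into S phase.

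The samples were cranial neural crest cells (CNCCs) made in culture from H9 cells, a line of human embryonic stem cells. In both clones used, S9CC13 and S9CC47, both SOX9 alleles carried a C-terminal tag of FKBP12-F36V, mNeonGreen and V5, so every sample, the 0h group included, expressed tagged SOX9 only. The degrader dTAGV-1 brings the tagged protein to a ubiquitin ligase. The groups 0h, 3h and 24h differed in the time after 500 nM dTAGV-1. The labels list that agent for all groups, with a time of 0 h for 0h, and the protocol names DMSO or dTAGV-1 by condition. They give relative SOX9 levels of 100% at 0h, 0% at 3h and 0% at 24h. Every sample took up 4-thiouridine (4sU, 100 uM) for 2 h, begun 1 h (3h group) or 22 h (24h group) after dTAGV-1, and 4sU in RNA is read as T>C conversions (SLAM-seq). Each group held 3 samples, 1 from each of the same 3 cultures: S9CC13_R6, S9CC47_R5 and S9CC47_R6, named by clone and differentiation batch. Values in every sample are given below in this order of cultures. No untagged cells treated with dTAGV-1 were analysed here.

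Total reads per sample ranged from 16955633 to 28782678 and T>C reads from 3130673 to 5475800. The defining crest markers were present: 14 of 14 reached a CPM of 1 (CPM are reads scaled by the library total) in at least 1 sample, and their summed level was 4552 to 4622 CPM at 0h, 5435 to 5680 CPM at 3h and 6740 to 7124 CPM at 24h, a sum that includes SOX9 RNA itself. In that sum SOX9 went from 736 to 783 CPM at 0h to 1614 to 1862 CPM at 24h, and MSX1 from 594 to 672 CPM to 1349 to 1553 CPM. NR2F1 changed little (1019 to 1094 and 1036 to 1095 CPM). Of 8 pluripotency markers, 5 stayed under 1 CPM in all 9 samples (POU5F1, NANOG, SOX2, ZFP42 and TDGF1). LIN28A (241 to 374 CPM), DPPA4 (34.2 to 44.6 CPM) and DNMT3B (18.8 to 26.4 CPM) were expressed in every sample. Also under 1 CPM throughout were 5 of 6 neural progenitor markers, 2 of 7 neuron markers and 5 of 10 cartilage markers. The pluripotency sum was 369 to 437 CPM at 0h and 305 to 329 CPM at 24h, and the cartilage sum 377 to 413 CPM and 205 to 266 CPM. COL2A1 held most of the cartilage sum (302 to 332 CPM at 0h and 152 to 201 CPM at 24h). The part of these shifts in the results below was not tested. The library S9CC13_R6 at 3h had the lowest T>C share of all (15.9%) and S9CC47_R6 at 24h the highest (21.3%). The same 2 libraries lay at the ends of the surrogate variable, a covariate estimated from the counts of all genes (-0.67 and 0.59 for total reads). Time fits of total and T>C reads that left out samples estimated this variable anew. Results that changed when either library was left out are given with and without it.

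At 0h the CNCCs expressed the whole set. Sequencing from the 3′ end makes the reads of a gene depend little on RNA length, so CPM were compared between genes without a length correction. Reads are not a count of molecules, since PCR copies count as reads. The level ran from 8.93 ± 1.58 CPM for POLE2, the second subunit of polymerase epsilon, to 695 ± 56.1 CPM for CCND2, a D-type cyclin (SD, n = 3). Next below CCND2 came the helicase subunit MCM7 (657 ± 24.1 CPM) and RRM1, the large subunit of ribonucleotide reductase (654 ± 54.2 CPM), and these 3 levels differed by less than the SD of CCND2. The 6 subunits of the MCM2 to MCM7 ring, which assemble in equal numbers as protein, did not have equal CPM. MCM7 was followed by MCM4 (307 ± 12.6 CPM), MCM3 (300 ± 10.6 CPM), MCM5 (210 ± 24.3 CPM), MCM2 (120 ± 20.2 CPM) and MCM6 (115 ± 12.9 CPM). MCM4 and MCM3, and likewise MCM2 and MCM6, were closer than their SDs. Among the G1/S regulators CCND2 stood well above CCND1 (176 ± 16.7 CPM), while CCNE1 (26.9 ± 1.25 CPM), E2F2 (21.5 ± 1.52 CPM) and CCNE2 (21.1 ± 2.07 CPM) were near the low end.

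After SOX9 depletion most of these RNAs stayed close to their level at 0h. Summed over the 44 genes, total reads were 5670 ± 206 CPM at 0h, 5829 ± 139 CPM at 3h and 6082 ± 173 CPM at 24h (SD, n = 3 each), a difference in means of 2.80% at 3h and 7.26% at 24h. CCND2 alone made up 358 of the 412 CPM between 0h and 24h. Without it, the other 43 genes summed to 4975 ± 152 CPM at 0h and 5029 ± 142 CPM at 24h, a difference of 1.09% in overlapping groups. With DESeq2 size factors in place of library totals, the sum of all 44 differed by 1.82% at 3h and 4.34% at 24h, the groups at 0h and 24h overlapped, and without CCND2 the difference at 24h was -1.67%. The summed level of the set without CCND2 thus had no direction that held under both scalings. In bulk RNA, a change in the number of cells in S phase and a change in RNA per cell cannot be told apart.

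At 3h, no member was called in total reads (DESeq2, adjusted p under 0.1, the threshold used throughout), where 1.89% of the 11710 genes tested were called. By unadjusted p under 0.05, 2 of the 44 passed (CCND1 and CCND2), and edgeR also called 0 members, with 3 under that unadjusted p. The 95% interval of the log2 fold change lay within 0.5 of 0 for 44 of 44 members, against 69.5% of all genes tested. The members were also better covered than most genes, with a median of 1541 mean normalised reads against 529.9.

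At 24h, 6 of 44 members (13.6%) were called in total reads, against 15.0% of all genes tested. 4 were higher (CCND2, SLBP, PCNA and UHRF1), against 7.11% of all genes, and 2 were lower (MCM3 and GINS2), against 7.85%. The share of members called was thus near that of genes in general. The members' log2 fold changes ran from -0.31 (E2F2, not called) to 0.49 (CCND2), with a median size of 0.13 against 0.16 over all genes, and 23 of the 44 were above 0. The interval lay within 0.5 of 0 for 39 of 44 (88.6%), against 57.5% of all genes. The members were again better covered (median of 1541 mean normalised reads against 529.9), which narrows their intervals. The call count changed when the library S9CC13_R6 at 3h was left out. This library is no part of the contrast but enters the same fit. Without it 1 member was called (CCND2) and 424 of all genes in place of 1751. The 0h and 24h counts stayed the same in that fit, while the size factors and the surrogate variable were estimated anew. Without S9CC47_R6 at 24h, 4 were called (CCND2, SLBP, PCNA and MCM3), with 7.94% of all genes. Without S9CC13_R6 no member was called (DESeq2, 154 of all genes) and without S9CC47_R6, 1 (CCND2), with 2.82% of all genes. Within batch R6, that is without S9CC47_R5, 6 were called, with 6.22% of all genes. CCND2, PCNA, SLBP and UHRF1 among them are in the list above, while MCM2 and MCM6 are not. Batch R5 held 1 sample per time and gives no test. With the culture as a replicate block beside the surrogate variable, 2 were called (CCND2 and PCNA), with 7.10% of all genes, and the calls of SLBP (adjusted p = 0.156), UHRF1 (0.444), MCM3 (0.152) and GINS2 (0.371) were lost.

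**Figure D1:**
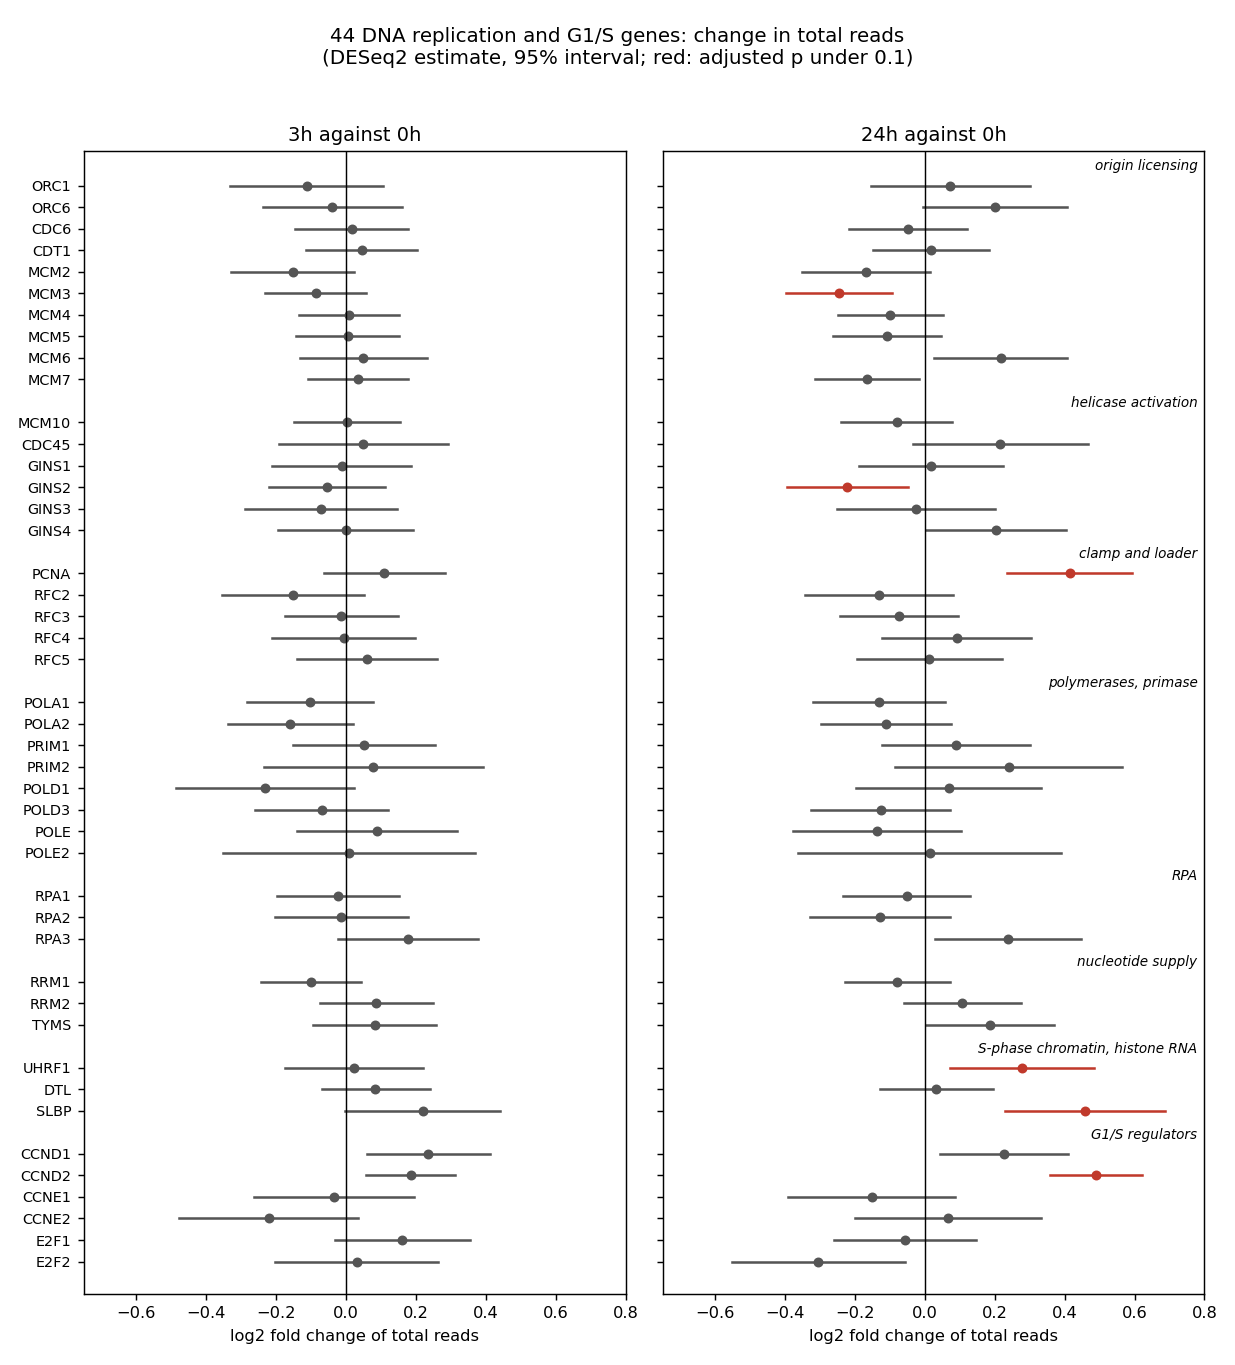
Log2 fold change of total reads (x axis) for each of the 44 genes (y axis, grouped by role), 3h against 0h on the left and 24h against 0h on the right. Points are DESeq2 estimates and bars 95% intervals (n = 3 per group), with red for adjusted p under 0.1. No gene is red at 3h, and 6 are red at 24h, within a range of -0.31 to 0.49.

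CCND2 had the largest change among the members in total reads, and it was called in T>C reads as well. CCND2 (chr12:4269771-4305353, plus strand, hg38, last exon 4299860 to 4305353) encodes cyclin D2, which pairs with CDK4 and CDK6. Its normalised total reads (counts divided by size factors) were 14879, 16399 and 14302 at 0h, 15203, 17228 and 18215 at 3h, and 21156, 22031 and 23984.5 at 24h. All 24h samples lay above all 0h samples, while 3h and 0h overlapped. Log2 fold changes between times in total and T>C reads are adjusted for batch and the surrogate variable. They therefore need not match the normalised reads printed beside them. The mean normalised total reads of CCND2 were 47.4% higher at 24h than at 0h. By 24h its adjusted log2 fold change had reached 0.49 (SE 0.0677, adjusted p = 5.92e-11 in DESeq2), with normalised reads higher in 3 of 3 cultures. From 3h to 24h it was 0.30 (SE 0.0722, adjusted p = 0.0018).

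In T>C reads, which sample RNA made during the 2 h of labelling, CCND2 had 4445, 5162 and 4116 normalised reads at 0h, 4889.7, 5946 and 5763 at 3h, and 6365, 6913 and 6807 at 24h. It was the one member called in T>C reads at 3h (log2 fold change 0.31, SE 0.0729, DESeq2 adjusted p = 0.00302), where 1.79% of 12037 genes were called. Each culture was higher at 3h than at 0h, but the ranges of the groups overlapped. With the culture as a replicate block and no surrogate variable, the call at 3h was lost (0.28, adjusted p = 0.269), and it was also lost without any 1 of the cultures (adjusted p = 0.143 without S9CC13_R6, 0.126 without S9CC47_R5 and 1.0 without S9CC47_R6). At 24h the log2 fold change in T>C reads was 0.50 (SE 0.0758, adjusted p = 1.25e-08), and there it lost the call without S9CC13_R6 (0.43, adjusted p = 0.147) or without S9CC47_R6 (0.54, adjusted p = 0.242). SLBP had a slightly larger estimate in T>C reads at 24h (0.52, SE 0.192, adjusted p = 0.127), which was not called. For CCND2 in total reads the 24h call was lost without S9CC13_R6 (0.38, adjusted p = 0.123) and kept in 14 of 15 alternatives.

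SLBP, UHRF1 and PCNA were higher at 24h in total reads. SLBP (chr4:1692731-1712344, minus strand, last exon 1692731 to 1693713) binds the stem-loop of replication-dependent histone RNAs. It had 651, 677 and 593 normalised total reads at 0h, 726, 713 and 766 at 3h, and 959, 781 and 967 at 24h. The 24h samples all lay above the 0h samples, with S9CC47_R5 nearest to them. Its log2 fold change was 0.46 (SE 0.117, DESeq2 adjusted p = 0.00206), and 0.37 without the library S9CC13_R6 at 3h (adjusted p = 0.345). Leaving out a whole culture, with the surrogate variable estimated anew, gave 0.17 without S9CC13_R6 (adjusted p = 1.0) and 0.52 without S9CC47_R6 (adjusted p = 0.406). Such fits hold 2 samples a group, so a lost call does not show that the result rested on the culture left out.

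PCNA (chr20:5114953-5126626, minus strand, last exon 5114953 to 5115362) is the sliding clamp that tethers the polymerases. It had 2106, 2667 and 2271 normalised total reads at 0h, 2320.3, 2425 and 2604 at 3h, and 2946, 3241 and 3766 at 24h. No 24h sample was as low as any 0h sample, and the highest was S9CC47_R6. The log2 fold change was 0.41 (SE 0.0911, DESeq2 adjusted p = 1.89e-04) from 0h to 24h and 0.30 (SE 0.0971, adjusted p = 0.045) from 3h to 24h. Without S9CC13_R6 at 3h the 24h value against 0h was 0.22 (adjusted p = 0.495), without the whole culture S9CC13_R6 it was 0.23 (adjusted p = 1.0) and without S9CC47_R6 0.40 (adjusted p = 0.365). In total reads from 3h to 24h, PCNA and CCND2 were the 2 members called (4.55%), against 5.39% of all genes, and without S9CC13_R6, without S9CC47_R5 or with the block and the surrogate variable neither of them was.

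UHRF1 (chr19:4903080-4962154, plus strand, last exon 4960657 to 4962154) guides maintenance DNA methylation behind the fork. It had 1291, 1583 and 1356 normalised total reads at 0h, 1446, 1403 and 1406 at 3h, and 1821, 1587 and 1777 at 24h. The groups at 0h and 24h nearly met, since S9CC47_R5 was at 1583 and then 1587. The estimate was 0.28 on the log2 scale (SE 0.105, DESeq2 adjusted p = 0.066). It was 0.46 without S9CC47_R5 (adjusted p = 0.0304), 0.38 without S9CC47_R6 (adjusted p = 0.591) and -0.024 without S9CC13_R6 (adjusted p = 1.0). In that last fit the surrogate variable was estimated anew. The normalised reads of both cultures kept in it were higher at 24h than at 0h. Without the library S9CC13_R6 at 3h the estimate was 0.17 (adjusted p = 0.83), and without S9CC47_R6 at 24h 0.26 (adjusted p = 0.239).

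**Figure D2:**
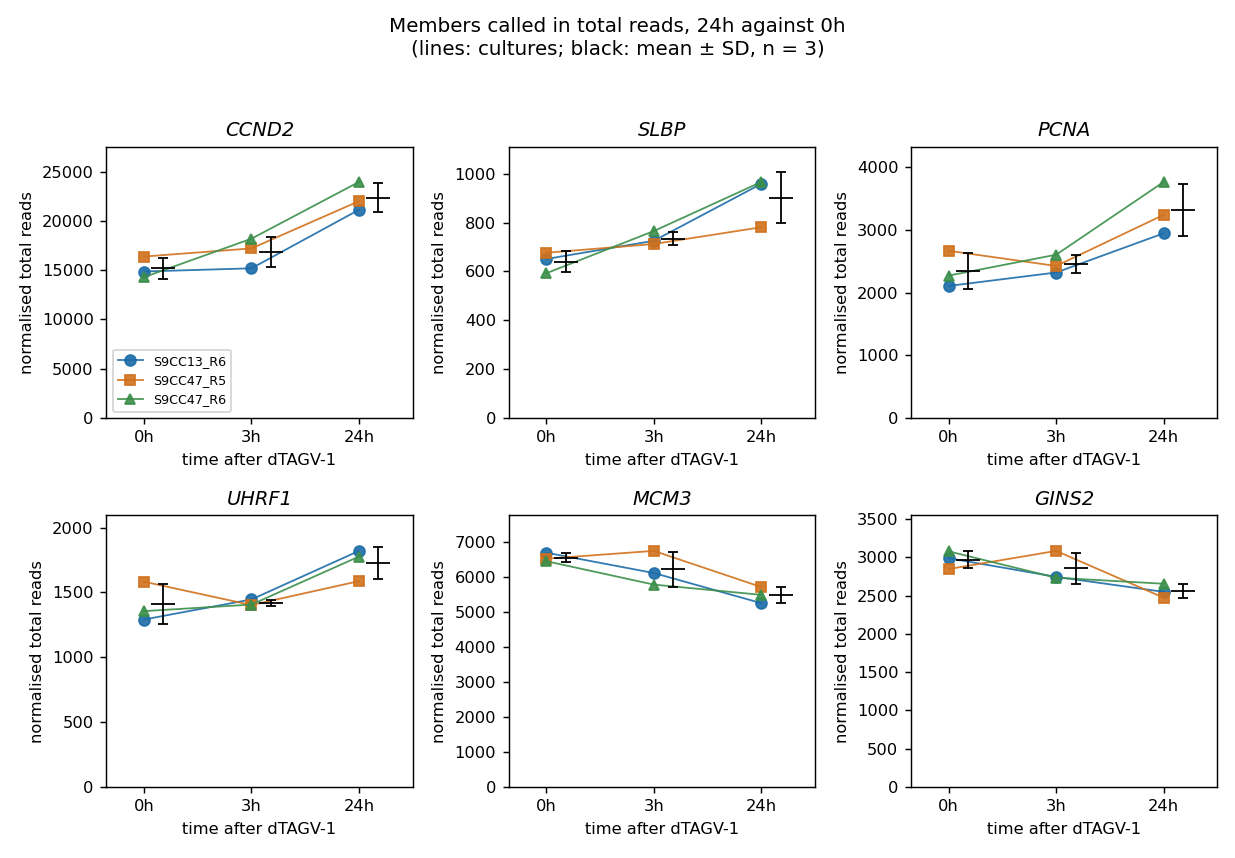
Normalised total reads (y axis, from 0) against time after dTAGV-1 (x axis, not to scale) for the 6 genes called at 24h against 0h. Coloured lines and symbols are the 3 cultures and black marks the mean ± SD (n = 3). CCND2, SLBP, PCNA and UHRF1 end higher than they began in every culture, and MCM3 and GINS2 lower.

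MCM3 and GINS2, both parts of the replicative helicase, were lower at 24h. MCM3 (chr6:52264014-52284881, minus strand, last exon 52264015 to 52264786) had 6689, 6517 and 6446 normalised total reads at 0h, 6108, 6740.2 and 5777 at 3h, and 5246, 5707 and 5484 at 24h. All 24h samples were below all 0h samples. The log2 fold change was -0.25 (SE 0.0772, DESeq2 adjusted p = 0.0199). MCM3 was also the other member called in T>C reads at 24h, where 4.98% of all genes were called: it had 1383, 1325 and 1225 normalised T>C reads at 0h and 1009, 1039 and 1065 at 24h (log2 fold change -0.32, SE 0.101, adjusted p = 0.048). Leaving out any culture ended both calls of MCM3, as did leaving out S9CC13_R6 at 3h (-0.20 in total reads, adjusted p = 0.532, and -0.31 in T>C reads, adjusted p = 0.259). GINS2 (chr16:85676198-85690073, minus strand, last exon 85676198 to 85678337) had 2988, 2846 and 3078 normalised total reads at 0h, 2745, 3084 and 2733 at 3h, and 2548, 2472 and 2654 at 24h. Its 24h samples were the lower ones throughout, by a log2 fold change of -0.22 (SE 0.0882, adjusted p = 0.0863), with no call in 11 of 15 alternatives, among them the replicate block (-0.22, adjusted p = 0.17), each culture left out (the value nearest 0 was -0.12 without S9CC13_R6, adjusted p = 1.0) and either library left out. The last exon of GINS2 overlaps GSE1 on the opposite strand, and whether reads were counted by strand is not given in the sources used here, so this value is uncertain.

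E2F factors bind words such as TTTGGCGC, TTTGCCGC, TTTCGCGC and TTTCCCGC, and these were searched on both strands in the promoters of RefSeq (GRCh38.p14, 250 bases before to 50 after each start). A site such as TTTGGCGCGAAA holds a word on each strand and so matches more than once. Promoters were found for 35 of the 44 members. CCND1, CCND2, CCNE2, GINS4, MCM4, MCM5, POLD3, RPA2 and RPA3 had no entry. At least 1 word stood in 20 of the 35 (57.1%), against 3.99% of all 27305 genes with a promoter and 3.31% of all 35116 promoters. The shorter word CCAAT stood in 21 of 35 (60.0%), against 39.7% of all genes. These backgrounds hold every gene with a promoter entry, expressed here or not, while the members are expressed genes chosen by name. The shares among expressed genes were not computed. Called and uncalled members alike held E2F words. The windows of the 4 called members with a word upstream of a start are printed here in the direction of the gene, with the word in capitals (for MCM3 and the second UHRF1 window the word itself, for the others its reverse complement). The MCM3 window is chr6:52284879-52284946 (minus strand), GINS2 chr16:85688955-85689015 (minus strand), PCNA chr20:5126644-5126711 (minus strand), and UHRF1 chr19:4909457-4909500 and chr19:4909954-4910021 (plus strand).
MCM3: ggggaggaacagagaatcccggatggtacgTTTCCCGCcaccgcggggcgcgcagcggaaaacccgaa
GINS2: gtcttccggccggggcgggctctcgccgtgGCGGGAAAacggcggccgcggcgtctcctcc
PCNA: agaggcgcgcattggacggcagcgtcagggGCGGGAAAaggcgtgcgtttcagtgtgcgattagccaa
UHRF1, first window: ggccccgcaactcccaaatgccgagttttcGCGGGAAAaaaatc
UHRF1, second window: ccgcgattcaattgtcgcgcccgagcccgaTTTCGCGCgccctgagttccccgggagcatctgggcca
These 4 genes share the word and not the direction of change: PCNA and UHRF1 were higher at 24h, and MCM3 and GINS2 lower. A match is a description of these letters and not evidence of binding.

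By role, the rest of the set varied as follows at 24h in total reads. Over all members of a role, log2 fold changes ran from -0.25 to 0.22 in licensing and from -0.22 to 0.22 in helicase activation. The range was -0.13 to 0.24 in RPA, -0.08 to 0.19 in nucleotide supply and 0.03 to 0.46 in S-phase chromatin and histone RNA. Of the 10 licensing genes, MCM3 was called. The ring subunit MCM7 was at -0.16 (95% interval -0.31 to -0.02, DESeq2 adjusted p = 0.157) and MCM6 at 0.22 (0.03 to 0.41, adjusted p = 0.138), so that subunits of the same ring had estimates on either side of 0, neither of them past the threshold. ORC1, ORC6, CDC6 and CDT1, which load the ring, ranged from -0.05 to 0.20. These are adjusted estimates: the mean normalised reads of CDT1 were 2322 ± 142 at 0h and 2081 ± 433 at 24h (SD, n = 3). Of the 6 genes of helicase activation, GINS2 was called, and CDC45 (0.22, -0.03 to 0.47) and GINS4 (0.20, 0.00 to 0.40) were the highest estimates. Of the clamp and its loader, PCNA was called and RFC2, RFC3, RFC4 and RFC5 ranged from -0.13 to 0.09.

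In the other 3 groups of the copying machinery no member was called by DESeq2 or edgeR at 24h in total reads, and 2 (RPA3 and TYMS) had an unadjusted p under 0.05. Over all genes 15.0% were called by DESeq2 and 17.2% by edgeR, and 23.8% had an unadjusted p under 0.05 in DESeq2. The groups are small, so no trait of theirs can be read from these counts. The polymerase and primase subunits ranged from -0.14 (POLE) to 0.24 (PRIM2). POLA1, the catalytic subunit of polymerase alpha and the best expressed of them, had 2833, 1976 and 2344 normalised total reads at 0h, 2623, 1967 and 2231 at 3h, and 2117, 2014.5 and 2032 at 24h. Its groups overlapped (log2 fold change at 24h -0.13, 95% interval -0.32 to 0.06). RPA1, the large subunit of the single-strand binding protein, had 2094, 2649 and 2293 reads at 0h, 1916, 2293 and 2499.6 at 3h, and 2472, 2194 and 2558 at 24h. Those groups overlapped as well (-0.05, -0.23 to 0.13). RRM1 had 14067, 15420.5 and 13378 reads at 0h, 10996, 13595 and 14411 at 3h, and 14235, 13634 and 15147 at 24h. Its low value was in S9CC13_R6 at 3h, and its 24h interval was -0.23 to 0.07. TYMS, which makes thymidylate, was at 0.19 (0.00 to 0.37, DESeq2 adjusted p = 0.201), and its last exon overlaps ENOSF1 on the opposite strand.

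Among the G1/S regulators, CCND1, the other D-type cyclin expressed well, was higher than at 0h in every culture at both times, by 0.24 at 3h (95% interval 0.06 to 0.41, DESeq2 adjusted p = 0.268) and 0.23 at 24h (0.04 to 0.41, adjusted p = 0.103), without passing the threshold. Its last exon overlaps LTO1 on the opposite strand. E2F2 was lower at 24h in each culture (-0.31, -0.55 to -0.06, adjusted p = 0.103) and was called by edgeR. CCNE1, CCNE2 and E2F1 ranged from -0.15 to 0.07. Across all 44 members, the total-read ranges of the 24h and 0h groups did not overlap for 12 (27.3%), against 28.7% of all genes tested, of which 15.0% were called.

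In T>C reads, 2 members were called at 24h (CCND2 and MCM3, 4.55%), against 4.98% of all genes, and 7 had an unadjusted p under 0.05 (15.9%), against 13.6% of all genes. The members' median log2 fold change was 0.03. With the culture as a replicate block and no surrogate variable 5 were called (CCND2, MCM3, ORC6, PCNA and SLBP), with 6.00% of all genes. With the block and the surrogate variable 1 was (CCND2), with 2.94%, and the call of MCM3 was lost (-0.34, adjusted p = 0.109). Without S9CC13_R6 at 3h, 1 was called (CCND2), with 2.56% of all genes. From 3h to 24h, no member was called in T>C reads by DESeq2 (4 with unadjusted p under 0.05) or by edgeR (5), where 1.14% of all genes were called. The block without the surrogate variable called 1 (ORC6), with 4.40% of all genes. In total reads from 3h to 24h, where 2 were called, the block without the surrogate variable called 6 (13.2% of all genes) and the block with it 0 (2.12%).

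The T>C share of a gene is the percent of its reads that hold a conversion, and it differed several-fold among the members. At 0h it ran from 8.48% ± 2.09 for POLD1, the catalytic subunit of polymerase delta, to 49.9% ± 7.06 for E2F2 (SD, n = 3), with a median of 26.6% against 27.4% over all genes. Above 45% stood MCM10 (47.9% ± 2.90), CCNE1 (49.0% ± 4.49), GINS3 (49.1% ± 2.33) and E2F2, and the SDs of these 4 overlapped. At the low end, POLD1, POLA1 (10.8% ± 1.48), GINS2 (12.5% ± 1.46), MCM4 (12.8% ± 0.945) and RFC2 (12.8% ± 2.80) followed each other by less than the sum of neighbouring SDs. The medians by role were 37.3% for S-phase chromatin and histone RNA, 35.5% for helicase activation and the G1/S regulators alike, 26.3% for nucleotide supply, 26.0% for RPA, 24.4% for clamp and loader, 21.8% for licensing and 18.2% for the polymerases and primase. Roles were spread within themselves: among the GINS subunits, GINS2 was at 12.5% and GINS3 at 49.1%, and within licensing the 6 ring subunits lay between 12.8% and 23.3% while ORC1, ORC6, CDC6 and CDT1 lay between 28.2% and 41.4%.

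The share depends on how many T bases a read covers as well as on RNA turnover. Across the 44 members, its Spearman correlation with the percent of T in the last 250 bases of the transcript was 0.05, against 0.37 across 11323 genes. Genes are not independent replicates, and no unlabelled library was used here, so the background of T>C reads is unknown. Between times, no member's share was called: at 3h 1 had an unadjusted p under 0.05 by DESeq2 (CCND2) and 2 by edgeR, which also called 0, where 0.277% of the 11561 genes tested were called. At 24h no member reached an unadjusted p of 0.05 by either tool, where 0.0173% of all genes were called. CCND2 had shares of 28.9%, 33.4% and 29.3% at 0h, 26.9%, 33.1% and 31.9% at 3h and 30.7%, 33.8% and 31.5% at 24h. These overlapped between all groups. Summed over members, T>C reads made up 25.4% ± 1.04 of reads at 0h, then 23.8% ± 1.72 (3h) and 26.7% ± 0.751 (24h), with the lowest value in S9CC13_R6 at 3h (21.9%), the library whose share was lowest over all genes.

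**Figure D3:**
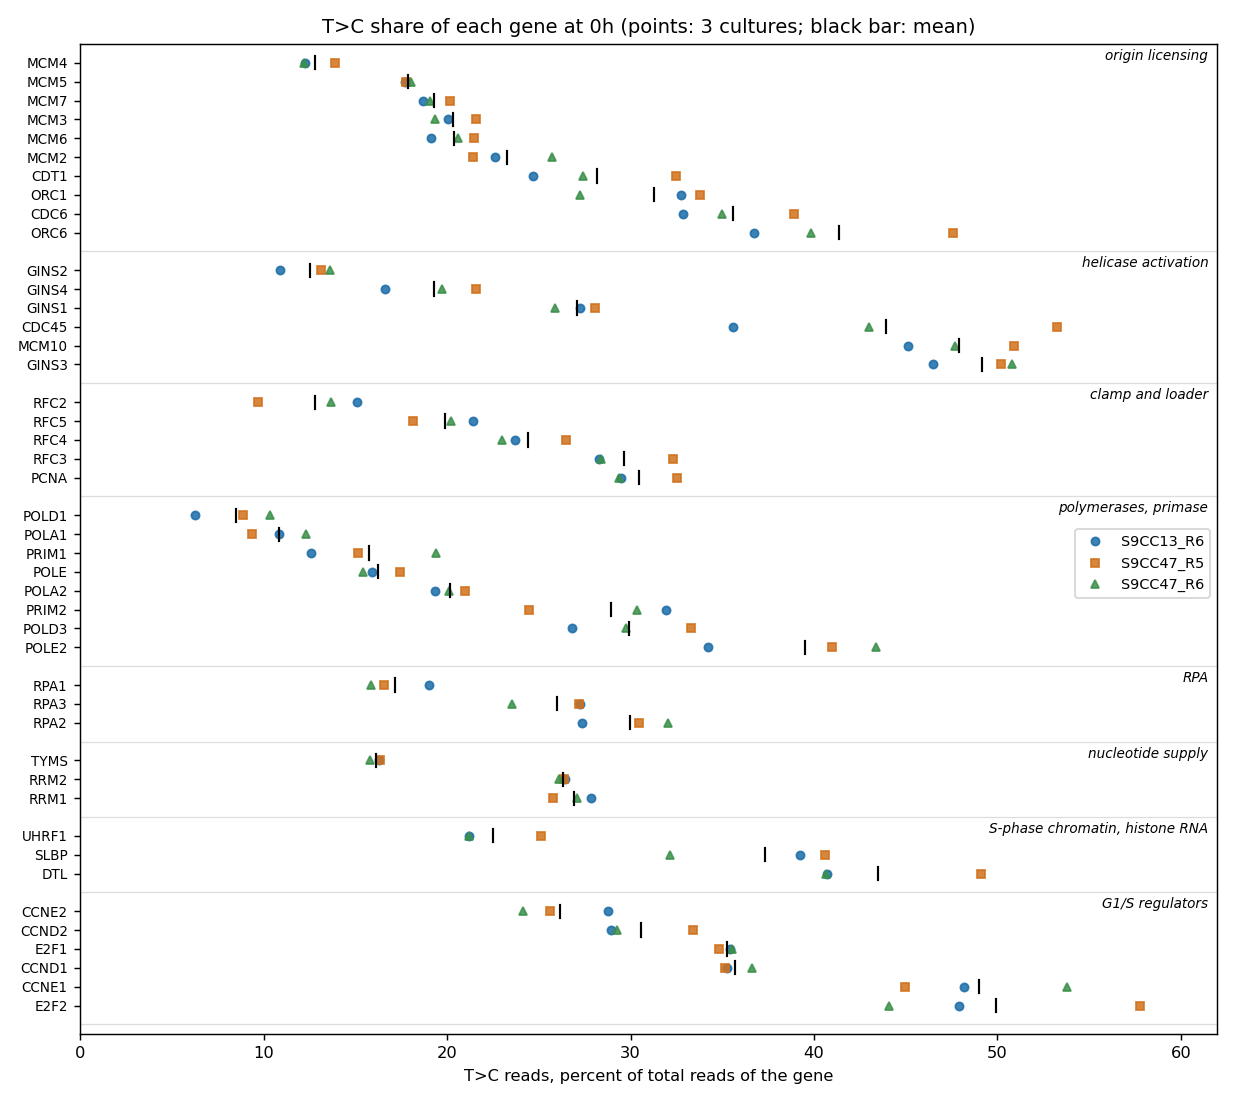
T>C reads as a percent of the total reads of each gene (x axis) at 0h for the 44 genes (y axis, grouped by role and ordered within it). Symbols are the 3 cultures and the black bar their mean. Shares run from 8.48% for POLD1 to 49.9% for E2F2, and each role but RPA and nucleotide supply spans more than 15 percentage points.

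The cultures differed as well. Over the 9 libraries the members' normalised total reads had a median coefficient of variation of 11.6% (14.4% over all genes tested), and the largest were those of MCM2 (25.9%), POLD1 (25.0%), PCNA (19.6%) and CDT1 (19.4%). Between S9CC13_R6 and S9CC47_R6, 2 clones differentiated in batch R6, 4 members (9.09%) were called at a background of 3.38%: POLD1 and CDT1 higher, MCM2 and ORC6 lower in S9CC13_R6. Each culture is 1 differentiation of 1 clone sampled 3 times, so the test compares these cultures and not clones.

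These 4 genes are described because the cultures differed in them. MCM2, a ring subunit, had 2355, 1279 and 2258 normalised total reads in S9CC13_R6 (in the order of the times) and 2379, 3065 and 3629 in S9CC47_R6. The cultures were alike at 0h and apart at 3h and 24h (log2 difference -0.66, SE 0.17, DESeq2 adjusted p = 0.0098). CDT1, the loader of the ring, ran the other way, with 2443, 3189 and 2388 reads in S9CC13_R6 and 2356, 1934 and 1585 in S9CC47_R6 (0.44, SE 0.136, adjusted p = 0.0489). POLD1 had 664, 730.2 and 664 reads in S9CC13_R6 and 598, 389 and 316 in S9CC47_R6 (0.68, SE 0.188, adjusted p = 0.018). Again the cultures were closest at 0h. ORC6, a subunit of the origin recognition complex, had 987, 892 and 1186 reads in S9CC13_R6 and 1190.0, 1171 and 1525 in S9CC47_R6, lower at each time (-0.34, SE 0.108, adjusted p = 0.063). S9CC47_R5 lay between the R6 cultures at 3h and 24h for all 4. These calls were lost with edgeR (0 called, 9 with unadjusted p under 0.05), without S9CC13_R6 at 3h (0) and without S9CC47_R6 at 24h (0). They were also lost without all 3h samples (0, with MCM2 at -0.37) and without all 24h samples (0). When the 0h samples were left out, 6 were called (the 4 with CCND1 and MCM5), with 9.9% of all genes. Between S9CC47_R5 and S9CC47_R6, batches R5 and R6 of 1 clone, no member was called by DESeq2 (3 with unadjusted p under 0.05) or edgeR (4), where 1.65% of all genes were called.

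**Figure D4:**
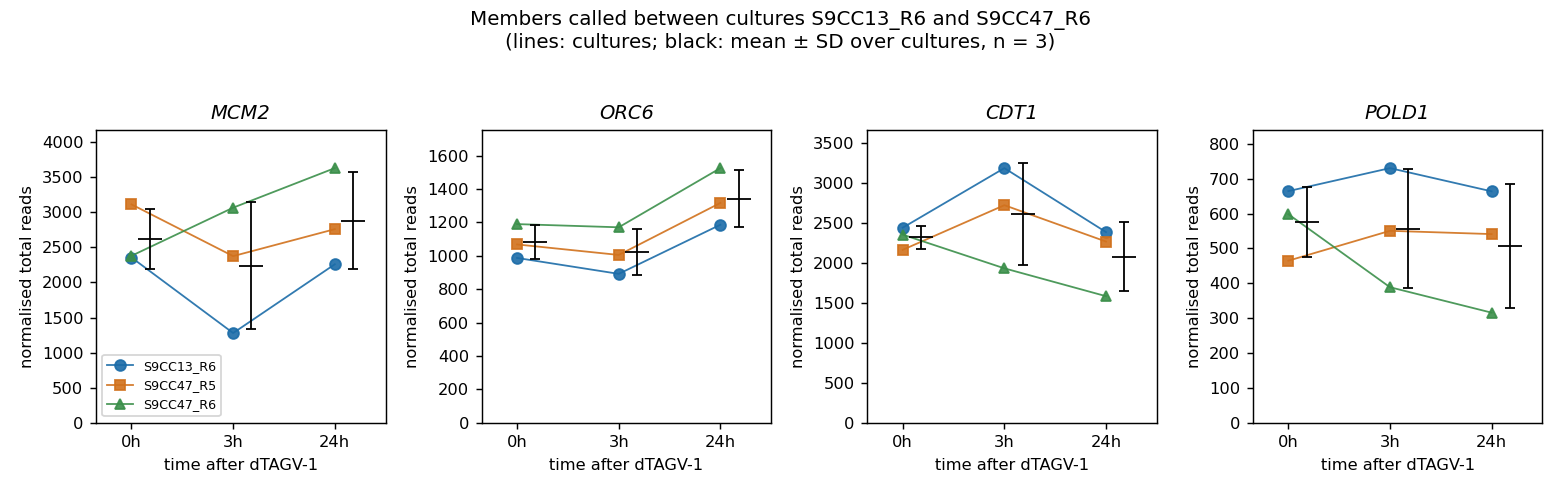
Normalised total reads (y axis, from 0) against time after dTAGV-1 (x axis, not to scale) for the 4 genes called between cultures S9CC13_R6 and S9CC47_R6. Coloured lines and symbols are the 3 cultures and black marks the mean ± SD over cultures (n = 3). In S9CC47_R6 MCM2 ends at 3629 and CDT1 at 1585, and in S9CC13_R6 at 3h MCM2 is at 1279.

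Both libraries at the ends of the surrogate variable held many of the members' extreme values. The matching counts over all genes were not computed, so no trait of the replication genes can be read from them. S9CC13_R6 at 3h had the highest normalised total reads of all 9 libraries for 9 members (CDT1, MCM4, MCM5, GINS1, RFC3, POLD1, POLE, DTL and E2F1) and the lowest for 10 (MCM2, ORC6 and RRM1 among them). S9CC47_R6 at 24h had the highest for 14 (MCM2, ORC6, PCNA, SLBP and CCND2 among them) and the lowest for 8, which included CDT1, MCM5, POLD1, RFC3 and E2F1. The genes at the top of one were thus in part those at the bottom of the other, within the same set of replication genes. The surrogate variable was computed from the same counts, and its part in these values was not tested.

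Other genes of the same processes were read from lists of their own. Their calls come from the main fit alone and were not recomputed with a library or culture left out. Over all genes, leaving out S9CC13_R6 at 3h cut the calls at 24h in total reads from 1751 to 424. At 24h in total reads 15.0% of all genes were called. Of 40 further replication genes, 2 were called higher and 2 lower (10.0%), and of 39 mitosis and G2/M genes tested, 2 were higher and 2 lower (10.3%). Of 24 further G1/S regulators tested, 5 were higher and 2 lower (29.2%). The 2 lower were MYBL2 (log2 fold change -0.29, SE 0.0818, DESeq2 adjusted p = 0.0073) and TFDP2 (-0.27, SE 0.0876, adjusted p = 0.0256), a transcription factor of cycling cells and a partner of E2F factors, named here after their values were seen. The largest changes in that list were in CDKN1C, an inhibitor of cyclin-dependent kinases (normalised total reads of 211 ± 24.2, 367 ± 51.9 and 582 ± 85.7 in order of time, log2 fold change at 24h 1.52, SE 0.146, DESeq2 adjusted p = 5.31e-23), and in MYC, a transcription factor of growth (70.6 ± 25.6 at 0h and 154 ± 48.6 at 24h, 0.91, SE 0.287, adjusted p = 0.0203). RB1, which holds E2F factors back, was at 0.55 (SE 0.178, adjusted p = 0.0242), and CDK6, a partner of cyclin D2, at 0.49 (SE 0.108, adjusted p = 2.29e-04). The related inhibitors CDKN1A (0.06, 95% interval -0.12 to 0.24) and CDKN1B (0.18, -0.04 to 0.39) did not pass the threshold. CDKN1C thus rose beside CCND2 and CDK6, and summed G2/M reads were 10569 ± 520 CPM at 0h, 10358 ± 320 CPM at 3h and 10369 ± 96.9 CPM at 24h.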

How the data were processed

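SLAM-seq libraries (QuantSeq 3′ FWD) of 9 CNCC samples were analysed. The authors deposited raw read counts per gene symbol for all reads and for reads with a T>C conversion, made with slamdunk on read 1 and hg38, with no molecular identifiers stated, so PCR copies count as reads. Genes were matched by symbol to GENCODE release 44. Counts of all 9 samples entered 1 DESeq2 fit (1.42.0, R 4.3.3) with batch, 1 surrogate variable (sva 3.50.0) and time, restricted to protein-coding symbols that reached 1 CPM in 3 samples or more, with independent filtering off and Benjamini-Hochberg adjusted p under 0.1. T>C share was tested on T>C and unconverted reads with read type by time, and cultures with time and culture. Every member was given by role, some only within the range of the role, with full values for called members and the best expressed member of other roles. Alternatives included edgeR (4.0.16), the culture as a replicate block, other filters and scalings, and each culture left out. Leaving out S9CC13_R6 at 3h or S9CC47_R6 at 24h was chosen after seeing the data. Cultures pair samples across times by the titles, and same-culture deviations correlated at a mean r of 0.27 in total reads and 0.13 in T>C reads (9 pairs each). With 3 samples a group from 2 clones of 1 line, p-values of the time tests measure the spread between libraries of these cultures. That spread is what is left after batch and, outside the share test, the surrogate variable. The main time fits had no term for culture and so did not use the pairing. Batch R5 was the 1 culture S9CC47_R5, so the batch term took up its offset. In the culture tests, p-values measure the spread over the times of a culture and not between differentiations. The 44 members and all lists were chosen with earlier results of these data known. The fits were tested on simulated data.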

Additional observations from a re-analysis of the deposited data

Results flagged for a closer look

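Between 3h and 24h, total reads differed for 2 of the 44 members (4.55%) in a direct DESeq2 test of these groups, against 5.39% of all genes. PCNA was higher at 24h than at 3h by 0.3049 on the log2 scale (SE 0.0971, adjusted p = 0.045, higher in 3 of 3 cultures) and CCND2 by 0.3045 (SE 0.0722, adjusted p = 0.0018, higher in 3 of 3 cultures). Without the library S9CC13_R6 at 3h the values were 0.22 for PCNA (adjusted p = 0.488) and 0.24 for CCND2 (adjusted p = 0.189), and without S9CC47_R6 at 24h they were 0.25 (adjusted p = 0.329) and 0.27 (adjusted p = 0.0522). With the culture as a replicate block beside the surrogate variable, neither was called (PCNA 0.30, adjusted p = 0.338, and CCND2 0.24, adjusted p = 0.194).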

How the results depend on the processing

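Counts of called members, in the DESeq2 fits unless another tool is named, moved as follows, and the cause was not tested. Percents in brackets are shares of all genes called in the same fit. In T>C reads at 3h (1 called), 0 were called without the surrogate variable (1.2%) or without covariates (1.11%). The culture as a replicate block (no surrogate variable, as wherever the block is named alone) gave 0 (1.43%), and leaving out any culture 0 (0.502% to 0.775%). In T>C reads at 24h (2), 4 were called by edgeR (8.04%) or without the surrogate variable (5.12%). Also 4 were called without covariates (5.4%) or with only the 6 samples compared (5.72%). The block gave 5 (6.0%), the block with the surrogate variable 1 (2.94%), leaving out S9CC13_R6 at 3h 1 (2.56%), and leaving out a culture 0 to 2 (0.459% to 2.14%). From 3h to 24h in T>C reads (0), the block gave 1 (4.4%). In total reads at 3h (0), the block with the surrogate variable gave 1 (CCND1, 1.89%) and leaving out a culture 0 to 1 (0.554% to 1.73%). In total reads at 24h (6), the block with the surrogate variable gave 2 (7.1%) and only the 6 samples 1 (3.21%). Leaving out S9CC13_R6 at 3h gave 1 (3.64%), and leaving out a culture 0 to 6 (1.33% to 6.22%). From 3h to 24h in total reads (2), the block gave 6 (13.2%), the block with the surrogate variable 0 (2.12%) and no covariates 4 (7.33%). Only the 6 samples gave 1 (3.18%), either library left out 1 (2.6% and 2.67%), and a culture left out 0 to 3 (0.806% to 7.68%). Between S9CC13_R6 and S9CC47_R6 (4), edgeR gave 0 (1.2%) and only the 6 samples 2 (2.87%). Either library left out gave 0 (0.678% and 0.523%), and a time left out 0 to 6 (0.251% to 9.9%). Between S9CC47_R5 and S9CC47_R6 (0), leaving out a time gave 0 to 4 (0.294% to 7.25%). Shares of T>C reads gave 0 throughout.

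The UHRF1 estimate changed sign in 1 fit, with values of -0.024 to 0.46 on the log2 scale when a culture was left out. Its normalised reads were higher at 24h than at 0h in every culture. Of the 15 called gene values, 81 recomputations lost the call, 1 reversed and 130 kept call and direction. CCND2 at 24h in total reads lost it in 1 of 15. Over all genes, the 1751 calls at 24h in total reads became 831 under the block with the surrogate variable, 371 with only the 6 samples, 424 without S9CC13_R6 at 3h, 927 without S9CC47_R6 at 24h and 154 to 719 with a culture left out, and the 599 in T>C reads became 968 by edgeR. Leaving out a culture leaves 2 samples a group. In the time tests of total and T>C reads the surrogate variable was then estimated anew from the samples kept. A call is easily lost in so small a fit, so its loss does not show that the result rested on that culture. Low counts limit the precision in T>C reads of POLD1 (30 to 80 reads a library), POLE2 (45 to 116) and PRIM2 (52 to 146) most.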
